A study of Homo sapiens with 38 samples.

Results

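Cytoplasmic RNA of HCT116 cells that lack AGO2 was compared directly with that of HCT116 cells that lack AGO1. HCT116 is a human colorectal carcinoma line. The comparison takes the 3 cytoplasmic libraries labelled AGO2-/- (passages 8, 9 and 10) against the 3 labelled AGO1-/- (passages 6, 7 and 8), which are 6 of the 38 samples of the series. Libraries were picked by genotype, fraction and passage in the labels and not by a measured value. The comparison itself, the gene lists and the naming rules were chosen with earlier results of these data known. Wild-type cytoplasm (passages 27, 28 and 29) and the nuclear fractions of the AGO1 and AGO2 knockouts are used beside them. Of the 30 RNA-seq libraries of the series 24 were read, among them wild-type nuclei, which entered no fit. The cytoplasmic libraries of the AGO1/2 knockout (passages 9, 10 and 11) and of the AGO1/2/3 knockout (passages 11, 12 and 14) are also among the 24. These cytoplasmic libraries enter the filter, the scaling and the estimate of the spread, but not the contrast. The 8 eCLIP samples were not used here. Both knockout lines were edited from HCT116 with a commercial CRISPR service, each is a single line, and all cells were grown in the same medium and harvested at a fixed time after seeding. The cytoplasm is the supernatant of a hypotonic lysis. A difference between the lines can come from the deleted gene, from the clone or from the passage, and these cannot be told apart. The 3 libraries of a line are cultures of that line, so p-values measure the spread between cultures and not between independent knockouts.

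Argonaute proteins hold a small RNA such as a microRNA (miRNA) and are guided by it to partly complementary sites, mostly in the 3′ untranslated region (3′ UTR) of mRNAs. They bind TNRC6 proteins, which recruit deadenylases and decapping factors, so that a targeted mRNA is translated less and decays faster. AGO1 to AGO4 overlap in this function, and AGO2 is the member that cuts a fully paired target. The comparison asks how far cytoplasmic RNA levels differ between cells that lack one or the other paralog.

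The AGO1 knockout libraries held 68161346 to 77898671 estimated reads and the AGO2 knockout libraries 66451720 to 76115673, close in depth, while wild-type cytoplasm held 39476205 to 43281746. Levels are given as TPM, which are scaled for transcript length and library size and summed over the transcripts of a gene. Fold changes are log2 values from edgeR on estimated counts, AGO2 knockout minus AGO1 knockout, so that a positive value is a higher level in the AGO2 knockout. The fold change can depart from the ratio of TPM values where the mix of transcripts differs between lines. A gene counts as called if its p, after Benjamini-Hochberg adjustment, was 0.05 or less. Epithelial markers were present in part: EPCAM was at 109 to 124 TPM in the AGO1 knockout and 128 to 139 TPM in the AGO2 knockout, and KRT8 at 300 to 383 and 294 to 374 TPM, but CEACAM5 and VIL1 reached at most 0.0113 and 0.0213 TPM in the 6 libraries. Of 11 fibroblast markers 4 were listed at 0 in all 6 libraries and 9 were under 0.1 TPM, with a summed level of 5.46 to 8.32 TPM against 3.19 to 4.06 TPM, mostly from ACTA2. Of 12 leukocyte and blood markers 5 were at 0 and 9 under 0.1 TPM, with a sum of 0.924 to 1.66 against 2.08 to 2.97 TPM, mostly from HBA1. One wild-type library, passage 29, stood apart from the others, and it enters the spread of the fit but not the contrast.

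The deleted genes were examined first. AGO1 (ENSG00000092847.14, chr1:35869808-35930532 of hg38, plus strand) was at 0.896, 0.895 and 0.868 TPM in the AGO1 knockout and at 12.5, 12.0 and 11.5 TPM in the AGO2 knockout. All AGO1 knockout libraries lay far below those of the AGO2 knockout and of wild type, and the AGO2 knockout lay inside the wild-type range of 10.7 to 14.4 TPM. The log2 fold change was 3.67 ± 0.07 (SE, adjusted p = 1.33e-13, edgeR quasi-likelihood test). The reads left in the AGO1 knockout lay mainly on the 13708-base transcript ENST00000373204, whose level was 0.534 to 0.624 TPM there against 6.08 to 6.25 TPM in the AGO2 knockout.

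AGO2 (ENSG00000123908.12, chr8:140520156-140635633, minus strand) was at 35, 32.3 and 29.7 TPM in the AGO1 knockout and at 21, 16.6 and 18.1 TPM in the AGO2 knockout. The groups did not overlap, but AGO2 RNA remained plainly present in the line labelled AGO2-/-. The log2 fold change was -0.68 ± 0.07 (adjusted p = 1.01e-05), and its main transcript ENST00000220592 was at 15.7 to 16 TPM against 9.39 to 9.74 TPM. A frameshift can remove a protein and leave its RNA, so the RNA level alone does not measure the loss of AGO2 protein. Wild-type cytoplasm held 31.1 to 39.8 TPM, and the AGO1 knockout differed from it by a log2 value of 0.01.

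The remaining paralogs had overlapping TPM ranges in both lines. AGO3 was at 8.62, 8.50 and 7.90 TPM in the AGO1 knockout and at 9.98, 7.96 and 8.60 TPM in the AGO2 knockout, ranges that overlap. Its log2 fold change of 0.23 ± 0.07 was called at an adjusted p of 0.0345, and the call was lost in 11 of 15 alternative fits, including each that left out 1 library. AGO4 was at 0.971, 1.11 and 1.51 TPM against 0.927, 1.39 and 1.35 TPM, and was not called (0.07 ± 0.15, adjusted p = 0.782). With passage as a covariate in the 6 libraries AGO4 was lower in the AGO2 knockout (-0.421, adjusted p = 0.0125).

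**Figure D1:**
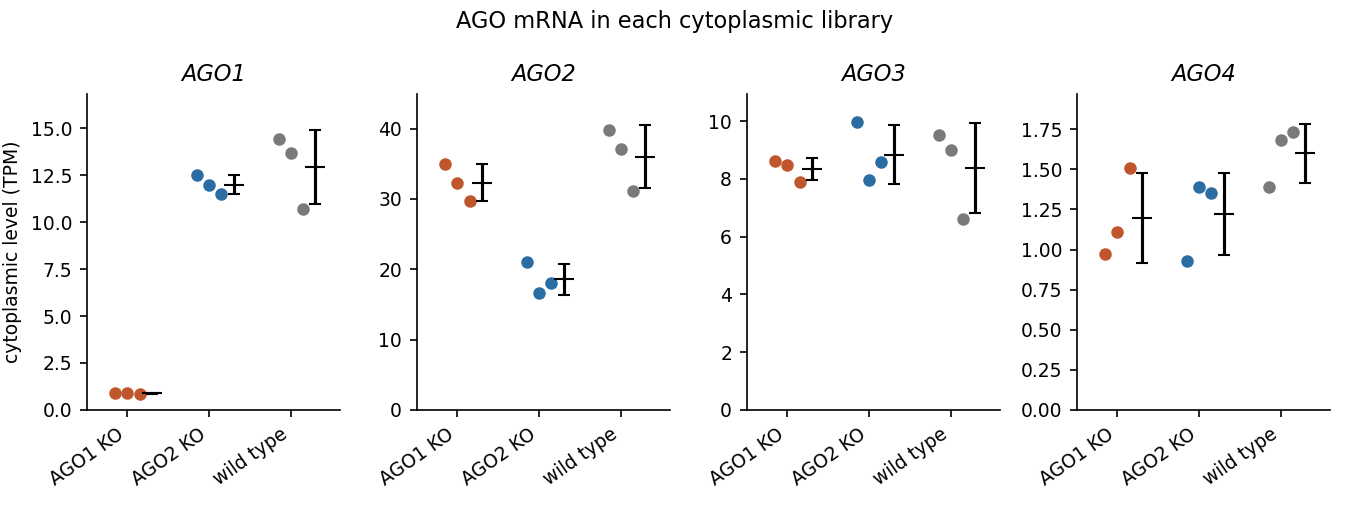
Cytoplasmic level (TPM, linear axes from 0) of AGO1, AGO2, AGO3 and AGO4 in the 3 libraries of the AGO1 knockout, the AGO2 knockout and wild type. Points are libraries and bars the mean ± SD (n = 3); AGO1 is at 0.886 ± 0.0157 TPM in its own knockout, whereas AGO2 is still at 18.5 ± 2.23 TPM in the AGO2 knockout.

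Of 17605 genes tested in the cytoplasm, 4594 (26.1%) were called, 2547 (14.5%) higher and 2047 (11.6%) lower in the AGO2 knockout. Most of these differences were small: 2664 of the called genes changed by less than 1.5-fold, and 1001 genes (5.69% of those tested) by 2-fold or more, 561 upwards and 440 downwards. Only 73 genes were at least 8-fold higher and 69 at least 8-fold lower. Called genes made up 29.9% of the 13620 protein-coding genes tested and 15.3% of the 2501 lncRNA genes. Of the 1001 genes, 650 had a mean under 1 TPM in both lines. The direction of the whole set depended on the scale and on the fit. With limma on log2(TPM + 1) 3482 genes were called, of which 37.0% were higher in the AGO2 knockout, against 55.4% in the main test. On counts of only the 6 libraries compared the share was 51.4%, and with passage as a covariate it was 48.8% (2248 higher and 2362 lower). The median over all genes moved by only -0.03 from the main test to log2(TPM + 1). RN7SK, an abundant structural RNA that takes part in every TPM total, was at 65700 ± 291 TPM in the AGO1 knockout and 80900 ± 790 TPM in the AGO2 knockout (log2 fold change 0.38, adjusted p = 0.0101), and its part in this shift was not tested.

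Genes that carry out silencing came next. Of 28 RNA interference factors, all of them tested, 2 were higher (AGO1 and AGO3) and 5 lower in the AGO2 knockout, and 21 were not called. The shares were 7.14% and 17.9%, against 14.5% and 11.6% of all genes. Beside AGO2 the lower ones were XPO5, which exports miRNA precursors from the nucleus, ZSWIM8, the receptor of a ubiquitin ligase that degrades AGO bound to certain targets, and TNRC6B and TNRC6C, the scaffolds that AGO proteins recruit. XPO5 was at 18.6, 19.2 and 19.9 TPM in the AGO1 knockout against 14.5, 13.3 and 14.5 TPM in the AGO2 knockout, without overlap (-0.40 ± 0.07, adjusted p = 0.00121). TNRC6C fell from 5.13 ± 0.188 to 3.36 ± 0.172 TPM (n = 3, log2 fold change -0.39, adjusted p = 0.00321) and TNRC6B from 10.0 ± 0.733 to 8.11 ± 0.606 TPM (-0.40, adjusted p = 0.017). The enzymes that make miRNAs did not pass: DROSHA was at 12.8 ± 0.578 and 12.5 ± 1 TPM and DICER1 at 13.9 ± 0.826 and 15.2 ± 0.46 TPM (adjusted p = 0.637 and 0.118). The count of lower factors dropped from 5 to 3 without AGO1 knockout replicate 8 or AGO2 knockout replicate 8, and the count of higher ones from 2 to 1 without any of the 6 libraries.

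The list of 38 deadenylation, decapping and decay genes also holds factors of nonsense-mediated decay and poly(A)-binding proteins. Of these 38 genes 10 were lower and 4 higher in the AGO2 knockout (26.3% and 10.5%, against 11.6% and 14.5% of all genes). DCP1B, a cofactor of the decapping enzyme, showed the largest difference, at 8.30, 8.79 and 8.26 TPM against 4.62, 4.65 and 4.78 TPM (-0.76 ± 0.08, adjusted p = 5.74e-06). The AGO1 knockout stood above the wild-type range of 5.4 to 6.16 TPM, and the fitted difference from wild type was 0.69 for the AGO1 knockout and -0.07 for the AGO2 knockout (adjusted p = 4.85e-05 and 0.604). UPF2, a core factor of nonsense-mediated decay, was at 10.3, 9.51 and 10.0 TPM against 6.31, 6.47 and 6.28 TPM (-0.55 ± 0.07). The poly(A)-binding proteins PABPC1 (1320 ± 25.5 against 960 ± 55.8 TPM) and PABPC4 (125 ± 7.44 against 88.0 ± 5.04 TPM) were also lower. The list's median difference was -0.04, and without any of the 6 libraries the count of higher genes was 1 to 2 and of lower genes from 7 to 10.

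Messenger RNAs with a predicted miRNA site are where loss of an Argonaute would act most directly, and they were read by seed. The seed, bases 2 to 8 of the mature miRNA, sets which site is bound. The mature sequences below (RefSeq, seed in capitals) belong to families that are abundant in epithelial lines, to the families with the highest and lowest medians, and to liver-restricted miR-122 as a reference.
let-7a-5p: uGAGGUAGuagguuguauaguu
miR-17-5p: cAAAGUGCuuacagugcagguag
miR-21-5p: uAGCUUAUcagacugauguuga
miR-24-3p: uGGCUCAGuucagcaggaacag
miR-26a-5p: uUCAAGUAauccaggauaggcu
miR-122-5p: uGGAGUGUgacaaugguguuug

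The site searched was the complement of bases 2 to 8 followed by A. For each gene the 3′ UTR of the transcript that the annotation marks as canonical was searched. Only the transcript strand was read, since the other strand is not in the mRNA. These sites were CTACCTCA for let-7 (3.76% of the 3′ UTRs of 19016 genes hold it), GCACTTTA for miR-17 (4.54%), ATAAGCTA for miR-21 (2.46%), CTGAGCCA for miR-24 (5.56%), TACTTGAA for miR-26 (5.23%) and ACACTCCA for miR-122 (3.06%). No site contains another, although sites can share bases where they lie side by side. A site is a match of letters and not a measured binding event, and miRNA levels were not measured in these libraries.

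Genes with such a site differed little from the rest. Over 21 seed families, of 290 to 1322 tested genes each, the median log2 fold change ran from -0.031 to 0.041, against 0.007 for all 13386 tested genes with a 3′ UTR. The 570 genes with a let-7 site had the highest median (0.041), with 19.8% called higher and 14.7% lower in the AGO2 knockout. Genes with a miR-26 site had the lowest (-0.031, 14.1% and 17.4%). The 446 genes with a site for miR-122 had a median of 0.025 with 20.4% and 13.0% called, inside the range of the other families, and 16.9% and 13.2% of all genes with a 3′ UTR were called. On log2(TPM + 1) the let-7 median was -0.035, so its sign depends on the scale. The median of all genes tested was -0.0346 on that scale, and classes of genes by 3′ UTR length had medians of -0.053 to -0.035. The let-7 median thus moved with that of all genes. Length of the 3′ UTR gave no larger differences: medians were -0.006 for the shortest class (under 500 bases) and -0.005 for the longest (5000 bases or more).

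Experimentally established targets, taken from textbook lists, were counted next. Of 40 let-7 targets 36 were tested, 5 were higher and 4 lower (13.9% and 11.1%), shares near those of all genes. HMGA2, the classic let-7 target, was at 47.0 ± 0.656 and 53.5 ± 3.55 TPM (log2 fold change 0.30, adjusted p = 0.0427). The called members with the largest differences went in opposite directions. FRAS1 (0.98 ± 0.10, adjusted p = 8.41e-06) and PBX3 (0.88 ± 0.12, adjusted p = 0.000101) were higher in the AGO2 knockout. IGF2BP3, an RNA-binding protein, fell from 48.2, 49.7 and 56.1 TPM to 29.2, 28.6 and 33.3 TPM (-0.69 ± 0.13), and RDH10 was also lower (-0.58 ± 0.15). The count of higher targets was 3 without AGO1 knockout replicate 7, and of lower targets 2 without AGO2 knockout replicate 8. Of 38 tested miR-17 family targets 11 were higher and 4 lower (28.9% and 10.5%, against 14.5% and 11.6% of all genes, median 0.16), and this median was 0.03 on log2(TPM + 1). They included ITGB8, an integrin subunit that activates latent TGF-beta, at 0.341, 0.369 and 0.346 TPM in the AGO1 knockout and 0.998, 0.885 and 0.937 TPM in the AGO2 knockout (1.51 ± 0.10), and LIMK1, a kinase of actin dynamics, at 10.1 to 11.2 against 14.4 to 16.3 TPM (0.61 ± 0.06). Wild type held 0.818 to 0.892 TPM of ITGB8 and 15.2 to 16.1 TPM of LIMK1. The AGO2 knockout differed from it by 0.39 and 0.20 (adjusted p = 0.0116 and 0.0446), and the AGO1 knockout by -1.12 and -0.42. The 4 lower targets were 1 to 2 in fits without AGO1 knockout replicate 6, 7 or 8 or AGO2 knockout replicate 8 or 10.

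Among 29 tested miR-21 targets, 9 were higher and 5 lower in the AGO2 knockout (31.0% and 17.2%, against 14.5% and 11.6% of all genes). MARCKS, a membrane substrate of protein kinase C, was at 1.47, 1.57 and 1.96 TPM in the AGO1 knockout and at 7.23, 8.41 and 7.15 TPM in the AGO2 knockout (2.28 ± 0.13, adjusted p = 1.27e-08). TIMP3, an inhibitor of matrix metalloproteinases, went the other way, from 0.275, 0.365 and 0.373 TPM to 0.0337, 0.0576 and 0.052 TPM (-2.72 ± 0.20). Targets of the same miRNA thus lay at both ends of the range. Wild type held 8.86 to 10 TPM of MARCKS and 0.712 to 0.865 TPM of TIMP3. MARCKS differed from it by -2.38 in the AGO1 knockout and by -0.10 in the AGO2 knockout (adjusted p = 7.33e-08 and 0.634), so its difference lay in the AGO1 knockout. TIMP3 was below wild type in each line, by -1.10 and -3.82. PDCD4, the best known miR-21 target, was not called (16.6 ± 5.42 against 11 ± 1.04 TPM, adjusted p = 0.827). The count of lower targets was 3 without AGO1 knockout replicate 7 or 8 or AGO2 knockout replicate 8.

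Single genes with large differences were then named by rule. The 12 lowest and 12 highest genes were taken among called protein-coding and lncRNA genes of at least 1 TPM in the higher line whose libraries did not overlap, a condition that 44.9% of all genes tested met on TPM. In bulk RNA, fewer cells that express a gene and less RNA of it in each cell cannot be told apart. ANXA10, a calcium-dependent membrane-binding annexin (ENSG00000109511.12, chr4:168092537-168187736, plus strand), was at 28.2, 26.8 and 29.0 TPM in the AGO1 knockout and at 0.012, 0.021 and 0.0531 TPM in the AGO2 knockout. The AGO2 knockout libraries together held 11 reads of it and the AGO1 knockout libraries 10874, a ratio of 960 after scaling to library size (95% counting interval 536 to 1920). Wild type held 14.1 to 17.0 TPM, between the lines. The fitted log2 difference from wild type was 0.95 for the AGO1 knockout and -8.9 for the AGO2 knockout.

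ZNF595, a zinc finger gene at the end of the short arm of chromosome 4 (chr4:53286-88208), was at 2.36, 2.16 and 1.99 TPM in the AGO1 knockout, and 2 reads were found in all AGO2 knockout libraries together against 1507. The ratio was 732, with a counting interval of 202 to 6050. Zinc finger genes share long near-identical stretches, so its level is uncertain. The other KRAB-type gene of the set, ZNF426 on chromosome 19, was at 1.93, 2.04 and 2 TPM against 0.0533, 0.0562 and 0.0698 TPM (-4.94 ± 0.14). In wild type ZNF595 was at 1.11 to 1.94 TPM and ZNF426 at 1.16 to 1.55 TPM, so the low level belonged to the AGO2 knockout.

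A guidance ligand and its receptor were both low in the AGO2 knockout. SEMA3A, a secreted semaphorin, was at 20, 23.4 and 26.1 TPM in the AGO1 knockout and at 0.249, 0.288 and 0.152 TPM in the AGO2 knockout (-6.07 ± 0.23, adjusted p = 3.2e-10). NRP1, the neuropilin that binds it, was at 4.80, 4.85 and 5.55 TPM against 0.244, 0.206 and 0.320 TPM (-4.21 ± 0.26). Wild type set them apart: SEMA3A was at 11.3 to 15.7 TPM there, nearer to the AGO1 knockout, whereas NRP1 was at 0.506 to 1.05 TPM, nearer to the AGO2 knockout. DPEP1, a membrane dipeptidase, followed SEMA3A, at 6.21, 5.65 and 7.65 TPM against 0.0691, 0.128 and 0.0192 TPM, with 3.67 to 4.86 TPM in wild type.

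Long noncoding RNAs were among the lowest as well. PURPL, a lncRNA named for its induction by p53 (chr5:27217714-27497871), was at 3, 3.4 and 3.5 TPM in the AGO1 knockout against 0.00586, 0.0241 and 0.0409 TPM in the AGO2 knockout, or 1141 reads against 9 (counting interval of the ratio 64.7 to 270). Here the AGO1 knockout was the unusual line, since wild type held 0.0814 to 0.181 TPM, a log2 difference of 5.13 for the AGO1 knockout and of -1.75 for the AGO2 knockout. LNCAROD was at 1.91, 1.74 and 2.12 TPM against 0.118, 0.155 and 0.108 TPM (-3.82 ± 0.36). It lies at chr10:52450874-52755509, next to DKK1 (chr10:52314281-52318042), the secreted Wnt inhibitor whose activation gave it its name. DKK1 was at 103, 84.7 and 102 TPM in the AGO1 knockout and at 32.9, 24.3 and 27.4 TPM in the AGO2 knockout (-1.76 ± 0.26, adjusted p = 0.000182), so that the neighbours were lower in the same line. MSRB3-AS1 was at 7.30, 7.37 and 8.38 TPM against 0.290, 0.234 and 0.178 TPM (-4.94 ± 0.24). The strand setting of the quantification is not given in the sources used here, so reads of MSRB3 and of its antisense RNA may not be fully told apart.

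The remaining genes of the low end were PTCHD4, a patched-domain protein (2.42 to 3.24 against 0.111 to 0.195 TPM), SLC12A5, a potassium-chloride cotransporter (1.18 to 1.96 against 0.0414 to 0.129 TPM), and TMEM200A, a membrane protein (23.6 to 24.8 against 2.07 to 2.38 TPM). PTCHD4 resembled PURPL, with wild type at 0.381 to 0.450 TPM. TMEM200A lay between, with wild type at 9.24 to 10.0 TPM and each knockout line different from it (log2 differences of 1.47 and -1.85).

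At the other end stood the 12 genes with the highest values. EHF, an epithelial transcription factor of the ETS family (chr11:34621093-34663288, plus strand), was at 1.13, 1.94 and 1.30 TPM in the AGO1 knockout and at 28.6, 27.0 and 26.1 TPM in the AGO2 knockout (4.18 ± 0.19, adjusted p = 1.5e-09). Wild type held 12.6 to 15.4 TPM, so that EHF lay below wild type in one line (-3.07) and above it in the other (1.11). MECOM, a zinc finger transcription factor, showed the same order, at 0.070, 0.178 and 0.201 TPM, then 0.740 to 0.918 TPM in wild type, then 1.42, 1.59 and 1.27 TPM. PRPS1, which makes the phosphoribosyl pyrophosphate used for nucleotides (chrX:107628428-107651993), was at 1.62, 1.56 and 1.63 TPM in the AGO1 knockout against 31.2, 26.7 and 25.6 TPM in the AGO2 knockout (4.08 ± 0.09, adjusted p = 6.79e-13). With wild type at 21.4 to 27.0 TPM, this difference lay in the AGO1 knockout. PRPS2, its paralog, was at 26.2 ± 1.67 and 22.5 ± 1.82 TPM and was not called (adjusted p = 0.099).

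S100A4, a calcium-binding protein, was the most abundant gene of this end, at 20, 24.2 and 28.5 TPM against 205, 217 and 254 TPM (3.31 ± 0.21), with wild type between at 98.6 to 104 TPM. CSTA, an inhibitor of cysteine proteases, was at 0.225, 0.190 and 0.423 TPM against 5.1, 4 and 5.09 TPM. SUSD2, a membrane protein with a sushi domain, was at 0.410, 0.532 and 0.652 TPM against 5.94, 4.98 and 5.57 TPM. CYP4F11, a fatty acid hydroxylase, was at 0.188 to 0.310 against 2.37 to 2.54 TPM, and the lncRNA LINP1, named for its role in non-homologous end joining, at 0.072 to 0.173 against 1.03 to 1.21 TPM. CGB2, at 0.11 to 0.137 against 1.59 to 1.79 TPM, belongs to a cluster of near-identical chorionic gonadotropin genes, and its level is uncertain.

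CABYR, a calcium-binding protein of the sperm tail (chr18:24138987-24161600), had the highest log2 fold change of these 12 genes (7.19 ± 0.56). It was at 0.0204, 0.0443 and 0.0213 TPM in the AGO1 knockout, 0 to 0.0798 TPM in wild type and 1.59, 1.46 and 1.30 TPM in the AGO2 knockout. Read counts were 4 against 625, a ratio of 161 (counting interval 62.5 to 592). LINC02935 was at 0.063, 0.0687 and 0 TPM against 1.5, 2.21 and 2.28 TPM, or 2 reads against 95 (ratio 48.9, interval 13.2 to 410), with wild type at 0.530 to 1.41 TPM. Both knockout lines thus held genes that were nearly silent in one of them and measured in the other. Such intervals cover counting error only.

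**Figure D2:**
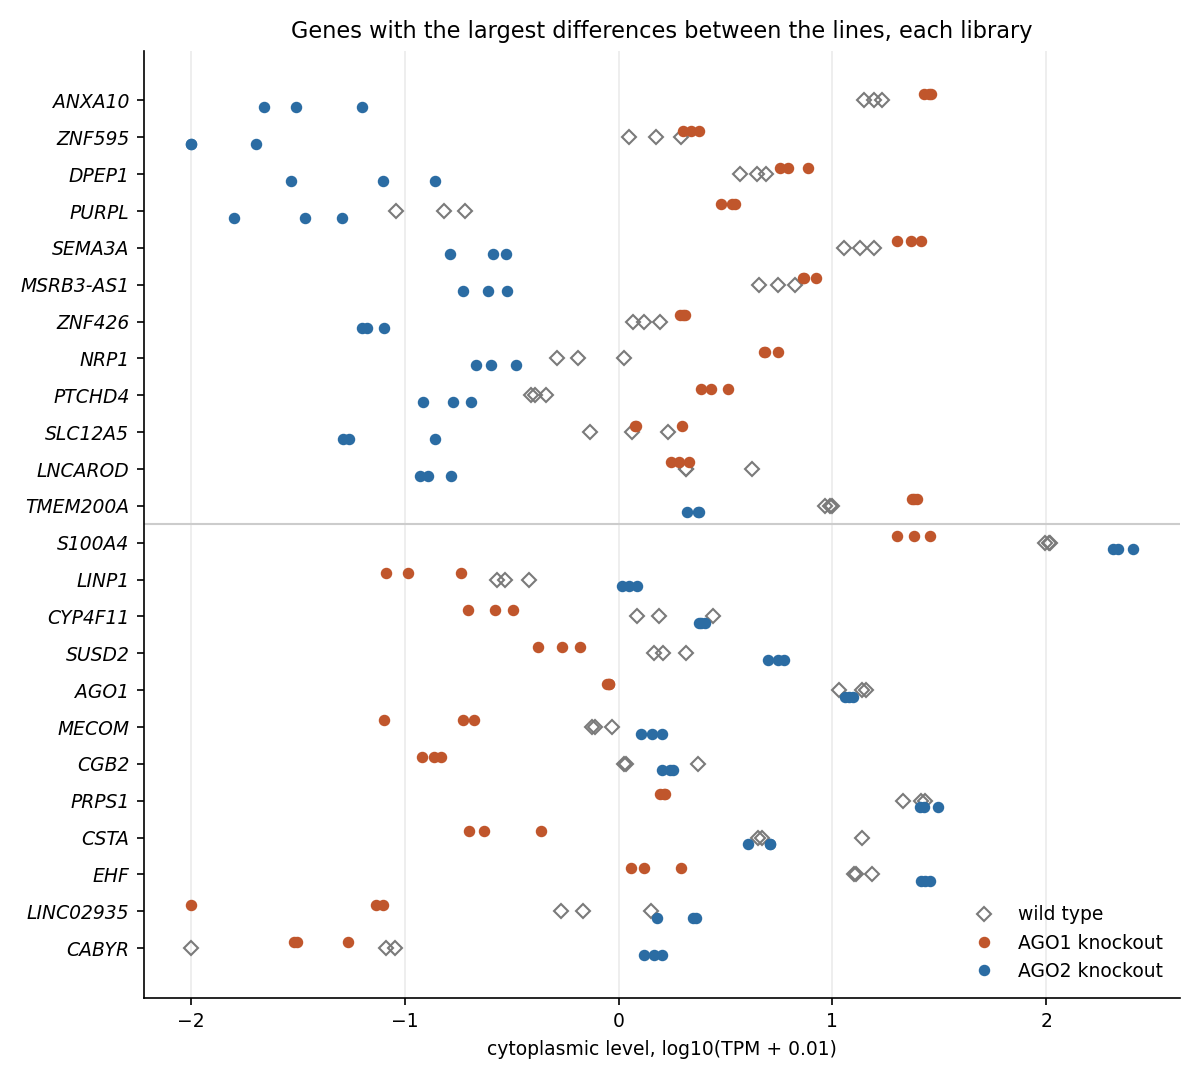
Cytoplasmic level, log10(TPM + 0.01), in each of the 3 libraries of wild type (open diamonds), the AGO1 knockout (orange) and the AGO2 knockout (blue) for the 12 genes with the lowest and the 12 with the highest log2 fold change that met the naming rule. Wild type lies below the AGO1 knockout but nearer to it for ANXA10, ZNF426 and SEMA3A, overlaps the AGO2 knockout for PRPS1 and AGO1, and lies between the lines for EHF and S100A4.

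By gene lists, targets of the tumour suppressor p53 were called mostly in one direction. HCT116 cells carry wild-type p53, which induces genes of arrest, DNA repair and apoptosis. Of 40 listed targets 39 were tested, 13 (33.3%) were lower and 1 higher in the AGO2 knockout, against 11.6% and 14.5% of all genes, with a median log2 fold change of -0.30. Lower genes included PLK2, a polo-like kinase, at 33.9, 35.2 and 37.6 TPM against 11.8, 10.6 and 12.1 TPM (-1.49 ± 0.08, adjusted p = 6.26e-09). RRM2B, the p53-inducible subunit of ribonucleotide reductase, was at 28.4, 29.0 and 30.2 TPM against 11.7, 13.4 and 14.2 TPM (-1.01 ± 0.09), and FDXR, a mitochondrial ferredoxin reductase, at 28.2, 27.2 and 32.3 against 14.8, 14.4 and 15.1 TPM (-0.89 ± 0.09). In none of these did the lines overlap. MDM2, the ligase that degrades p53, fell from 111 ± 4.9 to 55.6 ± 5.62 TPM and DDB2, a DNA damage sensor, from 26.6 ± 1.85 to 12.6 ± 1.16 TPM.

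SPATA18, a mitochondrial quality factor of the same list, was listed at 0 in all AGO2 knockout libraries and at 0.283, 0.293 and 0.304 TPM in the AGO1 knockout. With a floor of 3 counts per library it was at least 33.7-fold lower. The count of higher members was 0 by edgeR in each fit without 1 library except that without AGO1 knockout replicate 8. CDKN1A, the best known target, was not called (62.1 ± 7 against 46.5 ± 4.24 TPM, adjusted p = 0.269), nor were BBC3 and GDF15. Against wild type the median of the list was 0.37 for the AGO1 knockout and 0.01 for the AGO2 knockout, and these comparisons share the wild-type libraries. Between 12 and 14 members were lower without any 1 library and 14 to 15 on the TPM scales, while other settings of the count tests gave 12 to 22, and in nuclear RNA 18 of 39 were lower and 3 higher, where 14.3% and 17.9% of all genes were called.

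Epithelial junction and keratin genes leaned the other way. Of 45 listed genes 40 were tested, and the median was 0.34. In the AGO2 knockout 13 (32.5%) were higher and 3 (7.5%) lower, against 14.5% and 11.6% of all genes. DSC3, a desmosomal cadherin, was at 0.813, 0.822 and 0.930 TPM against 4.78, 3.46 and 3.48 TPM (2.08 ± 0.09). CLDN4, a tight junction claudin, was at 12.5, 15.5 and 17.2 TPM against 31.8, 30.6 and 33.6 TPM (1.03 ± 0.16), and CDH1, the epithelial cadherin, at 4.66 ± 1.02 against 7.41 ± 0.539 TPM (0.73, adjusted p = 0.0398). The keratins KRT80 (0.165 to 0.198 against 0.742 to 0.980 TPM) and KRT7 (0.318 to 0.553 against 0.906 to 2.14 TPM) were higher, whereas KRT8, KRT18 and KRT19, the abundant keratins of the line, were not called. The desmosomal proteins DSP and PKP3 and the scaffold TJP1 were lower.

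This count rested on single libraries more than that of p53 targets. It was 7 without AGO1 knockout replicate 6, AGO1 knockout replicate 7 or AGO2 knockout replicate 10, 8 without AGO2 knockout replicate 8, and 5 to 7 on the TPM scales, where 4 were lower. The 3 lower genes were 1 without AGO1 knockout replicate 8 or AGO2 knockout replicate 9. In nuclear RNA 24 of 36 tested genes were higher and 4 lower, where 17.9% and 14.3% of all genes were called. Of 34 tested miR-200 targets and regulators of epithelial-mesenchymal transition 9 were higher and 10 lower in the cytoplasm (26.5% and 29.4%). The shares of all genes were 14.5% and 11.6%, and the median of the list was 0.06. The higher ones included WASF3, an actin regulator (0.299 ± 0.00619 against 1.01 ± 0.025 TPM, 1.85), ETS1, a transcription factor (1.24 ± 0.0503 against 1.89 ± 0.151 TPM), and the epithelial genes GRHL2, CDH1 and EPCAM. The lower ones included the mesenchymal filament VIM (2.69, 2.55 and 2.97 against 0.935, 1.02 and 0.852 TPM) and the repressor ZEB1 (1.83 ± 0.444 against 1.17 ± 0.122 TPM, -0.54). The lower count was 5 without AGO1 knockout replicate 7 or AGO2 knockout replicate 10 and 6 without AGO2 knockout replicate 8.

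Markers of intestinal differentiation mostly fell under the filter on low counts. Only 14 of 44 listed genes passed it, 4 (28.6%) were lower and 0 higher by edgeR, against 11.6% and 14.5% of all genes. At an unadjusted p under 0.05 it was 1 higher, DESeq2 and limma gave 0, and leaving out AGO1 knockout replicate 8 or AGO2 knockout replicate 8 gave 1. KLF4, a transcription factor of differentiated epithelium, was at 7.40, 7.60 and 9.27 TPM against 2.63, 2.19 and 2.44 TPM (-1.65 ± 0.24), CA2, a carbonic anhydrase, at 9.02, 9.11 and 9.17 against 4.15, 4.21 and 4.42 TPM (-1 ± 0.09), and HNF4A, a gut and liver transcription factor, at 1.45, 1.40 and 1.61 against 0.806, 0.830 and 0.978 TPM (-0.69 ± 0.13). Wild type overlapped the AGO1 knockout or lay above it in these 3 genes, at 6.88 to 14.0, 13.4 to 14.0 and 1.56 to 1.85 TPM.

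**Figure D3:**
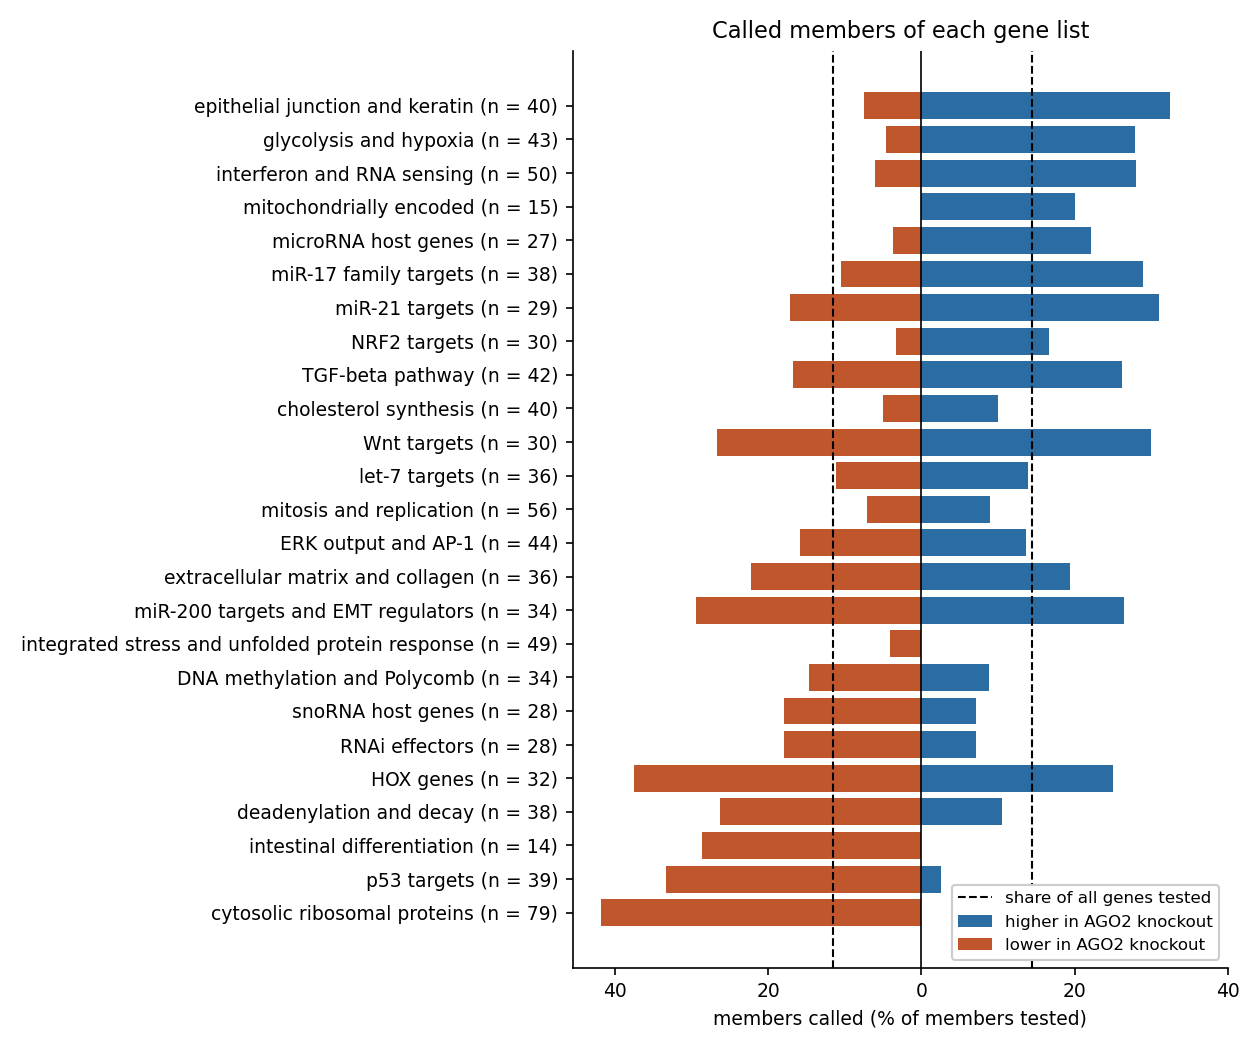
Share of the tested members of each gene list (n in brackets) called higher (blue, right) or lower (orange, left) in the AGO2 knockout, in percent, for lists with at least 14 tested members. Dashed lines give the shares over all genes tested, 14.5% and 11.6%; the p53 targets and ribosomal proteins reach 33.3% and 41.8% lower, the epithelial junction and keratin genes 32.5% higher.

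Interferon-stimulated and RNA-sensing genes were higher in the AGO2 knockout in 14 of 50 tested genes (28.0%, of 60 listed, against 14.5% of all genes) and lower in 3 (6%, against 11.6%), with a median of 0.12. STING1, the adaptor of cytosolic DNA sensing, was at 1.16, 1.33 and 1.54 TPM against 4.43, 4.73 and 4.82 TPM (1.90 ± 0.15, adjusted p = 5.78e-07). TLR3, an endosomal receptor of double-stranded RNA, was at 0.166, 0.733 and 0.351 against 1.51, 1.79 and 1.27 TPM (1.46 ± 0.17). Wild type lay between for STING1 (2.17 to 2.91 TPM), whereas for TLR3 (0.606 to 1.21 TPM) it overlapped the AGO1 knockout. Interferon effectors that were called stayed at low levels, such as IFI44 (0.0111 to 0.036 against 0.0806 to 0.170 TPM) and MX1 (0.0241 to 0.0763 against 0.101 to 0.137 TPM), while ISG15 was not called (adjusted p = 0.334). Fits without 1 library gave 11 to 12 higher genes, and 1 lower gene without any library but AGO1 knockout replicate 6. With passage as a covariate the median was -0.10.

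Genes of glycolysis and the hypoxia response were higher in 12 of 43 tested (27.9%, against 14.5% of all genes) and lower in 2 (4.65%, against 11.6%). ENO2, a glycolytic enolase, was at 2, 2.28 and 2.75 TPM against 8.49, 8.4 and 8.93 TPM (2.02 ± 0.14), and ADM, a hypoxia-induced peptide hormone, at 6.26, 6.15 and 4.59 against 11.9, 11.5 and 9.50 TPM (1.01 ± 0.16). The glucose transporters moved in opposite directions: SLC2A3 rose from 0.173 ± 0.0108 to 0.374 ± 0.0249 TPM (1.20, adjusted p = 0.0226), and the far more abundant SLC2A1 fell from 48.9 ± 3.26 to 28.7 ± 4.18 TPM (-0.70). ENO2 was at 6.43 to 8.36 TPM in wild type, between the lines (AGO2 knockout minus wild type 0.46, adjusted p = 0.0276), whereas SLC2A1 was at 99 ± 8.28 TPM in wild type, above both lines.

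Cytosolic ribosomal proteins gave the highest share lower in the AGO2 knockout among lists with at least 14 tested genes. All 79 genes were tested, 33 (41.8%) were lower and 0 higher by edgeR, and 75 of 79 had a negative value, with a median of only -0.16. DESeq2, RLE factors, the passage covariate and the other count settings called 21 to 50 lower and 0 to 1 higher, and at an unadjusted p under 0.05 it was 50 and 0. RPL4 was at 1610, 1700 and 1830 TPM against 1180, 1180 and 1250 TPM (-0.41 ± 0.08, adjusted p = 0.00114), with 1420 to 1550 TPM in wild type. The list's summed level was 83900 to 87100 TPM in the AGO1 knockout, 79700 to 82400 TPM in wild type and 71400 to 73400 TPM in the AGO2 knockout, without overlap. On the fitted counts the order was different. Against wild type the list's median log2 fold change was 0.22 for the AGO1 knockout and 0.06 for the AGO2 knockout, and these comparisons share the wild-type libraries. The place of the AGO2 knockout relative to wild type thus depends on the scale. The number of calls varied: it was 15 without AGO1 knockout replicate 7, 16 without AGO2 knockout replicate 8, 19 without AGO2 knockout replicate 9 and 59 to 62 on the TPM scales. Ribosomal protein genes have many processed pseudogenes, so single members such as RPS10 and RPL26 are uncertain. In nuclear RNA edgeR called 54 of 79 lower and 0 higher (62 and 0 at an unadjusted p under 0.05), where 14.3% and 17.9% of all genes were called.

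**Figure D4:**
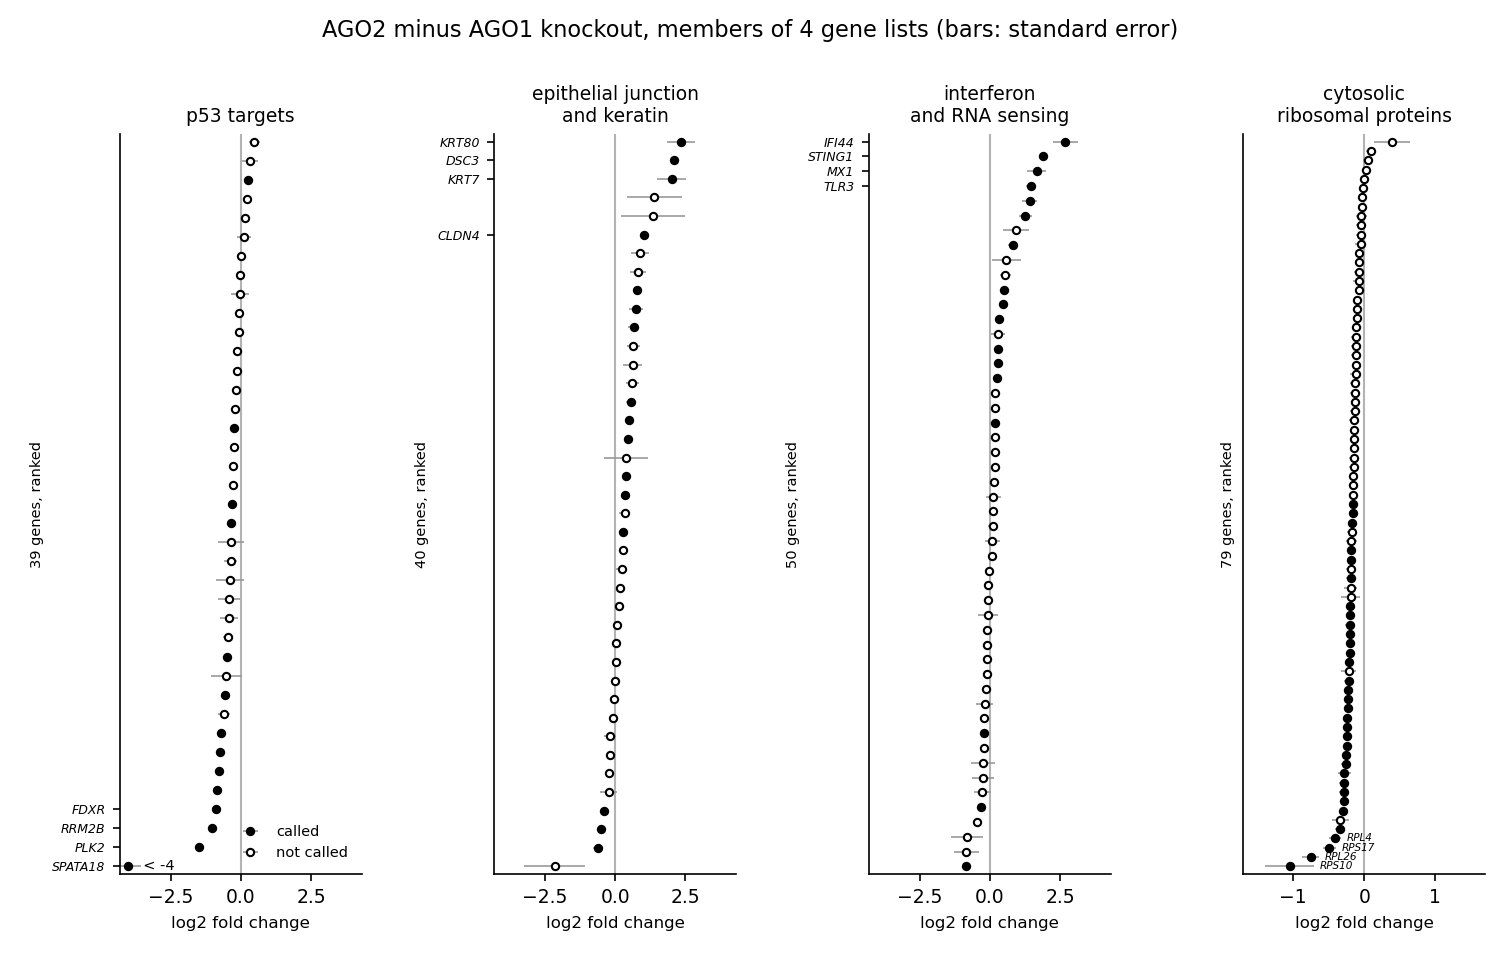
Log2 fold change (AGO2 minus AGO1 knockout, cytoplasm, bars standard error) of every tested member of 4 gene lists, ranked; filled points are called and open points are not, names mark genes picked by the naming rule, and SPATA18 is drawn at the edge of the axis because it lies beyond it. The panels have different axis ranges. Of 79 ribosomal proteins 75 lie below 0, and the list runs from -1.05 to 0.39. Apart from SPATA18 the called p53 targets reach -1.49 for PLK2, and the called epithelial genes reach 2.34 for KRT80.

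Whether a difference was equal in cytoplasm and nucleus was tested as an interaction over 12 libraries. Of 19066 genes 236 (1.24%) were called, 158 with a value higher in the cytoplasm and 78 lower, and 2325 had an unadjusted p under 0.05. The count was 60 without AGO2 knockout replicate 9, 62 without AGO1 knockout replicate 7, 534 with DESeq2 and 579 with the culture as a block. The main fit does not pair the fractions of a passage. With the block 281 genes were higher and 298 lower, so the excess of higher values depends on the fit. AGO1 itself was one of them, with a log2 fold change of 3.69 in the cytoplasm in this fit and 1.42 ± 0.05 in the nucleus, where the AGO1 knockout kept 3.54 to 4.13 TPM against 10.5 to 12.2 TPM (interaction 2.27 ± 0.07, adjusted p = 4.19e-10). AGO2 differed less between fractions (-0.33 ± 0.07, adjusted p = 0.0385), and the call was lost in 6 of 10 alternatives.

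GRHL2, a transcription factor that maintains epithelial identity (chr8:101492439-101669726, plus strand), had the largest value of the named genes that were measured in every group. In the cytoplasm it was at 0.0262, 0.013 and 0.0114 TPM in the AGO1 knockout, 0.819, 0.542 and 0.837 TPM in the AGO2 knockout and 0.427 to 1.13 TPM in wild type. In the nucleus the lines overlapped, at 1.31 to 3.14 and 2.18 to 3.11 TPM, with a log2 fold change of 0.04 ± 0.25. The interaction was 6.23 ± 0.58 (adjusted p = 7.97e-05), so its RNA was present in AGO1 knockout nuclei and nearly undetected in their cytoplasm.

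Other genes differed in degree. SLC23A2, a vitamin C transporter, was at 3.70, 3.55 and 3.88 TPM against 0.635, 0.568 and 0.670 TPM in the cytoplasm (-2.62 ± 0.08) and differed by only -0.95 ± 0.05 in the nucleus (interaction -1.66 ± 0.08, adjusted p = 2.16e-08). UTRN, the utrophin cytoskeletal linker, was at 12.2, 10.7 and 12.4 against 1.14, 1.01 and 1.24 TPM in the cytoplasm and at 29.4 to 30.8 against 13.5 to 14.4 TPM in the nucleus. CHPT1, a choline phosphotransferase, was at 10.1, 10.2 and 8.95 against 2.22, 2.67 and 2.10 TPM in the cytoplasm and at 5.94 to 7.30 against 3.69 to 4.32 TPM in the nucleus. FGF11, a fibroblast growth factor homolog, differed in the cytoplasm (0.787 to 0.877 against 0.226 to 0.341 TPM) and overlapped in the nucleus (2.19 to 2.48 against 2.09 to 2.62 TPM). CAPN12, a calpain protease, was higher in the AGO2 knockout in both, by 3.39 ± 0.33 and 0.98 ± 0.19. In the low-level pseudogenes BMPR1AP1 and DNAJC19P5 the values rest on few reads and on sequence shared with the parent genes.

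**Figure D5:**
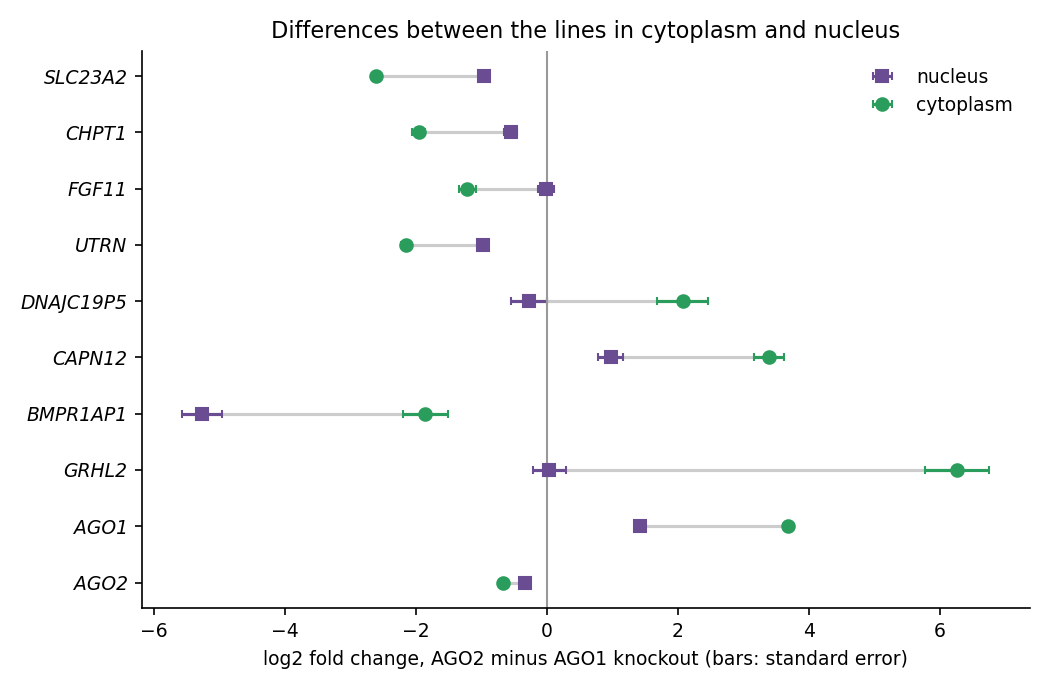
Log2 fold change (AGO2 minus AGO1 knockout, bars standard error) in cytoplasm (green circles) and nucleus (purple squares), fitted together, for 8 named genes with the highest or lowest interaction and for AGO1 and AGO2. GRHL2 and FGF11 lie near 0 in the nucleus (0.04 and -0.01), whereas SLC23A2, CHPT1 and UTRN are lower in both fractions and further from 0 in the cytoplasm.

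Differences were also read along the chromosomes, in 267 windows of 10 Mb with at least 20 tested genes. One window stood out. Between 60 and 70 Mb of chromosome 9 the 41 tested genes had a median log2 fold change of -0.839. Of these, 15 were called lower and 1 higher, against 11.6% and 14.5% of all genes. The next lowest window (chromosome 4, 110 to 120 Mb) had a median of -0.271 and the highest (chromosome X, 0 to 10 Mb) 0.221. From the 5th to the 95th percentile windows ran from -0.173 to 0.113. Against wild type the median of this window was 0.109 for the AGO1 knockout and -0.590 for the AGO2 knockout, and in nuclear RNA the lines differed by -0.858.

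The window lies beside the centromere, where long duplicated blocks hold near-identical genes and pseudogenes, so that reads are split between copies and single values are uncertain. ANKRD20A1 (chr9:67832765-67920552) differed by -1.12 ± 0.18, the pseudogene CNTNAP3P2 by -1.33 ± 0.14 and the lncRNA LERFS by -1.03 ± 0.14. PTAR1, near the far end of the window, differed by -0.12 ± 0.10 and was not called. The 9 genes of at least 1 TPM had a median of -0.123 and the others -0.960.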

How the data were processed

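The authors removed ribosomal RNA, made stranded libraries of total RNA, sequenced paired ends and quantified transcripts on hg38; the submitters' processing notes name STAR 2.5.3a and Salmon 0.11.0. The deposited estimated counts are Salmon's reads per transcript, not normalized between libraries. The deposited TPM values were made by the authors with Salmon from those reads and effective lengths. Of 200401 transcripts 195887 matched GENCODE 44 by identifier without version, and 2.23% to 4.01% of reads lay on unmatched ones and were left out. Counts were summed per gene and rounded.

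All 15 cytoplasmic libraries (5 genotypes) were fitted together in edgeR 4.0.16 under R 4.3.3 with its quasi-likelihood test, scaled by TMM, after low genes were dropped with filterByExpr (min.count 10); the contrast AGO2 minus AGO1 knockout used a 0.05 limit on the adjusted p, with a second rule of 2-fold. The interaction with fraction used 12 libraries. A p from permuting 3 against 3 libraries cannot fall below 0.1, so none is given. DESeq2 1.42.0 and limma 3.58.1 served as alternatives, and scripts ran in Python 3.11.15. The fits were tested on simulated data with 200 changed genes, split equally between 1.5-fold and 2-fold. The main contrast recovered 55.5% of them (40 genes at 1.5-fold and 71 at 2-fold) with 2 false calls. The interaction recovered 52% (38 and 66) with 3 false calls. In the simulated main contrast 200 of 17605 genes changed, whereas 4594 of 17605 were called in the data. The adjustment of p is stricter where fewer genes change, so 55.5% is not the share recovered in the data. A gene that was not called may still differ. Replicates differed by more than sampling noise. Genes were named by rule: the AGO genes, the 12 highest and 12 lowest, up to 4 called members of each of 31 lists, the 5 highest and 5 lowest interactions, genes on in 1 line (at least 1 TPM) and off in the other (under 0.05 TPM) and the 3 highest and 3 lowest windows. Other genes in the text (among them list members not called, DKK1 with LNCAROD, PRPS2 and the genes of the chromosome 9 window) were chosen after their values were seen. The comparison, lists and rules were chosen with earlier results of these data known.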

Additional observations from a re-analysis of the deposited data

Results flagged for a closer look

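A test of the difference between cytoplasm and nucleus picked out 236 genes in which the AGO2 against AGO1 contrast was unequal in the fractions, and the named genes among them follow, each with its interaction (log2 fold change in the cytoplasm minus that in the nucleus). Lower in the cytoplasm were SLC23A2 (-1.66), CHPT1 (-1.4), FGF11 (-1.2), UTRN (-1.19) and AGO2 (-0.33). Higher in the cytoplasm were GRHL2 (6.23), BMPR1AP1 (3.41), CAPN12 (2.42), DNAJC19P5 (2.35), AGO1 (2.27), the miR-21 target MARCKS (0.54) and PPIP5K2 (0.49). BMPR1AP1 has this sign because it differed more in the nucleus (-5.26) than in the cytoplasm (-1.88).

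Values that rest on groups listed at 0 are given for ENSG00000285283 (-9.69), at 0 TPM in AGO1 knockout nuclei and 1.52 to 4.33 TPM in AGO2 knockout nuclei, and ENSG00000277991 (8.76), at 0 TPM in AGO1 knockout cytoplasm and 0.717 to 2.09 TPM in AGO2 knockout cytoplasm. The fitted size of both depends on the prior count and is no bound. ENSG00000277991 was at least 100-fold higher in AGO2 knockout cytoplasm with a floor of 3 counts per library. PPIP5K2, an inositol phosphate kinase and a splicing candidate of the study, was at 11.7, 7.60 and 7.61 TPM in the AGO1 knockout and 13.2, 17.1 and 14.3 TPM in the AGO2 knockout. The call of MARCKS was lost without AGO1 knockout replicate 6 or 7 or any AGO2 knockout replicate, that of PPIP5K2 without AGO1 knockout replicate 7 or AGO2 knockout replicate 9, and that of BMPR1AP1 without AGO2 knockout replicate 9. DNAJC19P5 was no longer called without any 1 of the 6 cultures, and ENSG00000285283 without any AGO1 knockout replicate.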

How the results depend on the processing

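Of 140 named genes called in the cytoplasm, 99 kept their call in all 15 alternatives that could be fitted for them, 41 lost it in at least 1 and 0 reversed. The total of called genes ran from 3373 to 5862, the extremes being the fit without AGO1 knockout replicate 7 and the fit of only the 6 libraries compared, and without single libraries from 3373 to 3588. Calls of at least 2-fold were 534 with a mean count of at least 50, 158 on log2(TPM + 1) and 561 on log2(TPM + 0.1), against 1001, since the first removes weakly expressed genes and the pseudocounts shrink their fold changes, and 897 to 938 without single libraries. AGO4, not called in the main test, reversed to -0.421 with passage as a covariate (adjusted p = 0.0125), -0.066 without AGO1 knockout replicate 6 and -0.032 without AGO2 knockout replicate 10 (range without single libraries -0.066 to 0.202); the cause was not tested. The interaction gave 534 genes with DESeq2, 579 with culture as replicate block and 60 to 165 without single cultures (60 without AGO2 knockout replicate 9, 62 without AGO1 knockout replicate 7), against 236; of the 6 cultures only AGO1 knockout replicate 8 could be left out without moving it by more than 1.5 times. Same-numbered cytoplasm and nucleus correlated by 0.117, 0.0303 and 0.0932 in the AGO1 knockout and 0.109, 0.013 and 0.0498 in the AGO2 knockout. These values were all positive, and each was the highest of its cytoplasmic library with any nucleus of its line. They were not all above 0.1, and AGO2 knockout nucleus 9 correlated more with cytoplasm 10 (0.0357). The main fit leaves this pairing out. With culture as replicate block 281 genes were higher and 298 lower, against 158 and 78 in the main fit. Passage numbers of the lines share only 8, so no block was possible in the cytoplasm. Of the medians of lists and seed families, 204 of 870 moved by more than the spread between libraries. Depth limits genes under 1 TPM most.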

Other observations

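Of 30 tested Wnt targets 9 were higher and 8 lower in the AGO2 knockout (30% and 26.7%, against 14.5% and 11.6% of all genes). MMP7, a matrix metalloproteinase, was at 0.071 ± 0.0132 TPM against 0.984 ± 0.346 TPM (n = 3, 3.87 ± 0.36), while DKK1 was lower. Of 44 tested genes of ERK output and AP-1, 6 were higher and 7 lower (13.6% and 15.9%). Other settings of the count tests gave 6 to 20 lower and 5 to 6 higher, with 20 lower under passage as a covariate. AREG, a ligand of the EGF receptor, was at 197, 201 and 308 TPM against 68.3, 66.4 and 78.5 TPM (-1.63 ± 0.40), and ETV1, an ETS factor induced by ERK, at 15.2, 16.2 and 21.0 against 5.92, 6.01 and 7.38 TPM (-1.31 ± 0.16). Without AGO1 knockout replicate 7 only 3 of these genes were higher and 3 lower, without AGO2 knockout replicate 8 3 were higher, and 4 were lower without AGO1 knockout replicate 8 and 3 without AGO2 knockout replicate 9. In the TGF-beta pathway 11 of 42 were higher and 7 lower (26.2% and 16.7%), and 4 were lower without AGO1 knockout replicate 6 or 8. The ligand BMP2 was at 0.216, 0.235 and 0.248 TPM in the AGO1 knockout and listed at 0 in the AGO2 knockout, at least 28.7-fold lower. BMP4 was at 42.2, 44.8 and 41.5 against 20.7, 21.0 and 20.2 TPM (-0.99 ± 0.11), and wild type held more than both lines, at 66.3 to 109 TPM.

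Extracellular matrix genes split as well, with 7 of 36 tested higher and 8 lower (19.4% and 22.2%, against 14.5% and 11.6% of all genes). COL4A5, a basement membrane collagen chain, was at 5.05, 4.75 and 5.43 TPM in the AGO1 knockout against 0.810, 1.30 and 1.21 TPM in the AGO2 knockout (-2.20 ± 0.15), and its partner COL4A6, transcribed from the same locus, at 0.747 ± 0.139 against 0.111 ± 0.0195 TPM (-2.60). Of 32 tested HOX genes and their noncoding RNAs 8 were higher and 12 lower (25% and 37.5%), and 7 were lower without AGO2 knockout replicate 9. HOXA4 was at 1.21 ± 0.31 against 0.568 ± 0.115 TPM and HOXC4 at 0.122 ± 0.0258 against 0.361 ± 0.0866 TPM.

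Over all genes tested 14.5% were higher and 11.6% lower. Of 56 tested genes of mitosis and replication 5 were higher (3 without AGO1 knockout replicate 6, 7 or 8 or AGO2 knockout replicate 9 or 10) and 4 lower, of 49 stress response genes 0 were higher by edgeR (1 at an unadjusted p under 0.05, 0 to 3 with other tools and settings) and 2 lower (2 to 12 with other tools and settings, 12 with passage as a covariate). The latter were 0 without AGO1 knockout replicate 6 or AGO2 knockout replicate 9 or 10, and 1 without replicate 8 of either line. Of 40 cholesterol genes 4 were higher (2 without any of the 6 libraries) and 2 lower (1 without any but AGO1 knockout replicate 8). CCNE2, a cyclin of entry into S phase, had the largest change among the mitosis and replication genes, at 9.15 ± 0.63 against 4.61 ± 0.321 TPM (-0.92). Of 15 mitochondrially encoded genes 3 were higher and 0 lower by edgeR (0 lower at an unadjusted p under 0.05, 0 to 1 with other tools and settings), among them MT-ND5 (2070 ± 88.2 against 2890 ± 56.6 TPM, 0.57); without AGO2 knockout replicate 10 it was 1. Of 8 tested cancer-testis genes, out of 48 listed, 0 were called by edgeR, at an unadjusted p under 0.05, or in any alternative run.

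Further lists are given beside the shares of all genes, 14.5% higher and 11.6% lower in the AGO2 knockout (17.9% and 14.3% in the nucleus). Counts higher and lower were: miRNA host genes 6 and 1 of 27 (22.2% and 3.7%), snoRNA host genes 2 and 5 of 28 (7.14% and 17.9%, and 0 and 18 of 28 in the nucleus), DNA methylation and Polycomb genes 3 and 5 of 34 (8.82% and 14.7%), NRF2 targets 5 and 1 of 30 (16.7% and 3.33%), metallothioneins 3 and 2 of 8 (37.5% and 25%), nuclear retained RNAs 2 and 1 of 10 (20% and 10%), fibroblast markers 0 and 1 of 3, leukocyte and blood markers 1 and 0 of 3. Leaving out 1 library moved some of these. Host genes lower were 2 without AGO1 knockout replicate 8 or AGO2 knockout replicate 10, snoRNA hosts higher 1 without AGO1 knockout replicate 7 or 8 or AGO2 knockout replicate 8 or 10 and lower 3 without AGO1 knockout replicate 6 or AGO2 knockout replicate 10. Polycomb genes higher were 1 without AGO1 knockout replicate 7 or AGO2 knockout replicate 8 and lower 3 without AGO1 knockout replicate 6 or AGO2 knockout replicate 10. NRF2 targets higher were 3 without replicate 8 of either line, metallothioneins lower 1 without AGO1 knockout replicate 7 or AGO2 knockout replicate 8, and fibroblast markers lower 2 without AGO1 knockout replicate 6. Of 7 splicing candidates, which the study chose from other knockout lines of this series, 3 were higher and 1 lower (0 lower without AGO2 knockout replicate 8).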
